A study of Mus musculus with 4 samples.

Results

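Macro_Vegfa is one of 5 macrophage names that the authors gave to cells sorted from mouse mammary tumours, and it comprises inflammatory macrophages with high levels of Il1a, Ptgs2 and Tnfrsf9. Its members are the barcodes that the deposited annotation calls Macro_Vegfa and that have a column in the deposited count table. There were 1124 such cells of 16383 cells with counts. Of them, 871 of 13162 carried barcode suffix 1 and 253 of 3221 carried suffix 2. BALB/c mice carried tumours of the transplantable mammary carcinoma line 4T1, in which Mif, a cytokine gene named for inhibiting macrophage migration, was either depleted or wild-type. The genotype on the labels is that of the 4T1 tumour cells, and the labels give no age for the mice. Each library combined 3 tumours, and the labels name 2 Mif-depleted and 2 wild-type libraries. Dissociated cells were freed of dead cells, sorted as CD45-positive and propidium iodide-negative, and sequenced on the 10x Genomics droplet platform.

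Barcodes end in a suffix from 1 to 4, and no label or header ties a suffix to a library or a genotype. Mif-depleted and wild-type tumours were therefore not compared, and suffix 1 and suffix 2 are described apart as cells of unknown group. Counts were used for all Macro_Vegfa cells of suffix 1, for 25.1% of those annotated in suffix 2, and for 0 of those in suffixes 3 and 4. The genes analysed were 4099 of chromosomes 1 to 4 and of part of chromosome 5. Vegfa itself, Mif and its receptor chain Cd74 lie on other chromosomes or beyond these genes and were not analysed here. A Macro_Vegfa cell had a median of 3457 UMIs (unique molecules counted) over these genes in suffix 1, ranging between 105 and 22637, and a median of 3072 in suffix 2. The medians over all cells were 1224.5 and 1712 UMIs in suffixes 1 and 2. Levels below are UMIs per 10000 counted UMIs, summed over the cells of a name, with exact Poisson 95% intervals in brackets. These intervals and those of ratios cover counting error only. Cells are not replicates, and the names come from clusters of the same cells, so differences between names are descriptions and no test was run.

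Tumour macrophages arise largely from blood monocytes and take on different programmes within a tumour. Inflammatory macrophages secrete cytokines of the interleukin-1 family and interleukin-6, and they make prostaglandin E2 through the inducible cyclooxygenase that Ptgs2 encodes. Complement-rich macrophages instead produce the C1q chains and carry receptors for taking up dead cells and debris. Interleukin-1 and Toll-like receptor signals reach many inflammatory genes through NF-kB, AP-1 and C/EBP factors, which bind short DNA motifs near the start sites.

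The 4 genes given as markers of the name have different motifs before their start sites. Il1a (chromosome 2, 129299610 to 129309972, GRCm38) encodes interleukin-1 alpha. Il6 (chromosome 5, 30013114 to 30019981) encodes interleukin-6. Ptgs2 (chromosome 1, 150100031 to 150108227) encodes cyclooxygenase-2. Tnfrsf9 (chromosome 4, 150914562 to 150946102) encodes 4-1BB, a costimulatory TNF receptor best known from activated T cells. The 250 bases before the start of each, from RefSeq on GRCm38.p6, are shown because these genes carry the findings below. They lie at chr2:129309973-129310222 on the minus strand for Il1a, and on the plus strand at chr5:30012864-30013113 for Il6, chr1:150099781-150100030 for Ptgs2 and chr4:150927749-150927998 for the second of the RefSeq starts of Tnfrsf9. Each is written 5′ to 3′ in the gene's direction, and capitals mark matches to the NF-kB motif, the AP-1 motif TGANTCA and the C/EBP motif TTGCNNAA, searched on both strands.

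Il1a: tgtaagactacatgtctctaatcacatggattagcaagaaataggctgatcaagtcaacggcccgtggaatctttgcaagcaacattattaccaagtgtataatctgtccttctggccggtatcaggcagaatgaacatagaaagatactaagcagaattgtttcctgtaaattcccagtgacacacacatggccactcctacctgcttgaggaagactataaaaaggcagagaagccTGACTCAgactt

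Il6: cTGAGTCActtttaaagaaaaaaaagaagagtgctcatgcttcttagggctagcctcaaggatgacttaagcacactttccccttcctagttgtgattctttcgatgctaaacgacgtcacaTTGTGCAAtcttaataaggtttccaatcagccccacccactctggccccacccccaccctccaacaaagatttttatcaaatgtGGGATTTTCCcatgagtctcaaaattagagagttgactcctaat

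Ptgs2: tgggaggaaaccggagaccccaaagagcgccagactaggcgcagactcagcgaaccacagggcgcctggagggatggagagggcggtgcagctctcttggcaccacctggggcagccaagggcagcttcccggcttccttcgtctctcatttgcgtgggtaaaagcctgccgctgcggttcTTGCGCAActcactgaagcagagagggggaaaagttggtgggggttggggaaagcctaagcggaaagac

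Tnfrsf9: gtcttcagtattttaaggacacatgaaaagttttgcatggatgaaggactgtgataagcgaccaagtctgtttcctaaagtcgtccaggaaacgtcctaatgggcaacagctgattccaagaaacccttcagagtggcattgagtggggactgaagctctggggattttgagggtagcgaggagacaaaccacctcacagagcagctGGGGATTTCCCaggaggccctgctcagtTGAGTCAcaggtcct

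The Il1a window held an AP-1 match 12 to 6 bases before the start. Il6 held a match to each of the motifs, the NF-kB match being at 44 to 35 bases. Ptgs2 held a C/EBP match at 69 to 62 bases. The second start of Tnfrsf9 had a pair of overlapping NF-kB matches between 43 and 33 bases and an AP-1 match at 15 to 9 bases, whereas the window before its first start held 0 matches. Among 32851 RefSeq promoter windows of the same length, 3.9% held the NF-kB motif, 6.75% the AP-1 motif and 9.56% the C/EBP motif. The shares among 4121 windows of measured genes were 4.39%, 4.76% and 8.35%. A match is a string of letters and does not show that a factor binds there.

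Macro_Vegfa cells had the 4 markers at high levels, but each marker was as high or higher in some other name. Il1a stood at 18.0 [17.6, 18.5] UMIs per 10000 in Macro_Vegfa of suffix 1 and at 20.1 [19.2, 21.0] in suffix 2. Mono_Ly6c2 monocytes had 17.2 [16.3, 18.2] and 22.2 [20.5, 24.1], so the intervals of these names overlapped in both suffixes. Lower levels in suffix 1 were those of other names, among them 8.72 in Macro_Ccl12, 7.71 in Macro_Maf and 7.35 in CD8_Tex. Ptgs2 was at 31.6 [31.0, 32.3] in suffix 1 and 37.7 [36.5, 39.0] in suffix 2, below the 41.0 [39.6, 42.4] and 55.8 [53.0, 58.6] of Mono_Ly6c2. Macro_Maf had 12.8 UMIs of Ptgs2 per 10000 in suffix 1 and 12.9 in suffix 2, outside the Macro_Vegfa intervals.

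Il6 had few UMIs, at 1.90 [1.76, 2.06] in Macro_Vegfa of suffix 1 and 2.13 [1.85, 2.44] in suffix 2. In suffix 1 it was higher in fibroblasts at 4.34, cDC1_Ccl22 dendritic cells at 4.02 and Mono_Ly6c2 at 2.80 [2.44, 3.20]. Macro_Mgl2 and Macro_Maf had 0.980 and 0.623. Among the macrophage names reported here Macro_Vegfa was therefore the highest in Il6, and outside the macrophages it was not. Tnfrsf9 was at 7.97 [7.67, 8.29] in suffix 1 and 14.6 [13.8, 15.4] in suffix 2. Regulatory T cells named CD4_Treg had 35.3 and 36.2 in suffixes 1 and 2. Macro_Maf had 1.61 and 4.99, and Mono_Ly6c2 had 0.942 and 3.54. Exhausted T cells named CD8_Tex, with 6.97 and 14.5 [13.7, 15.4], overlapped Macro_Vegfa in suffix 2.

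**Figure D1:**
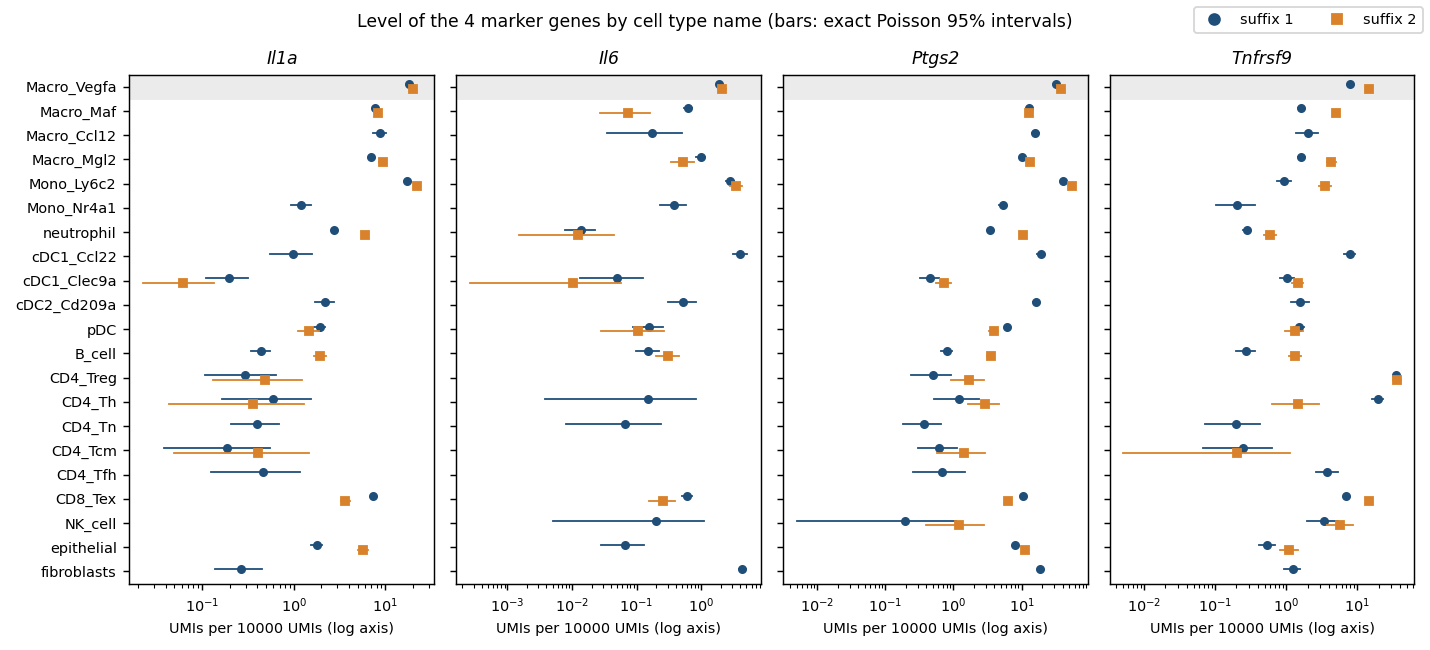
Levels of Il1a, Il6, Ptgs2 and Tnfrsf9 (UMIs per 10000 counted UMIs, log axis) by cell type name, with suffix 1 as circles, suffix 2 as squares and exact 95% Poisson intervals as bars; names with 0 UMIs are not drawn. The shaded Macro_Vegfa row lies near the top for Il1a, at 18.0 and 20.1 in suffixes 1 and 2, and below CD4_Treg for Tnfrsf9.

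Macrophage markers were present in Macro_Vegfa, at lower summed levels than in the other macrophage names reported here. Of 13 macrophage markers 7 were measured, and their summed level was 248 in Macro_Vegfa of suffix 1, against 464 in Macro_Maf, 450 in Macro_Ccl12, 287 in Macro_Mgl2 and 42.8 in Mono_Ly6c2. In suffix 2 the sum was 216 in Macro_Vegfa, against 455 in Macro_Maf. Monocyte markers, 5 measured of 13, stood the other way. Their sum was 91.8 in Macro_Vegfa of suffix 1, against 75.3 in Macro_Maf and 178 in Mono_Ly6c2. The T cell markers, 11 measured of 20, summed to 2.10 UMIs per 10000 in Macro_Vegfa of suffix 1 and 2.15 in suffix 2, and the highest of them in suffix 1 was Ikzf2 at 0.383. CD4_Treg cells summed to 328 in suffix 1. B cell markers, 5 measured of 12, summed to 0.994 in Macro_Vegfa and 42.8 in B cells.

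Macro_Vegfa made up 6.62% [6.20, 7.06] of annotated cells in suffix 1, 8.44% [7.94, 8.95] in suffix 2, 18.6% [17.8, 19.4] in suffix 3 and 14.4% [13.8, 15.0] in suffix 4, with exact Clopper-Pearson intervals. These are 871 of 13162, 1009 of 11961, 1734 of 9317 and 1632 of 11341 cells. Within the macrophage names the shares were closer together. They were 40.8% [38.7, 42.9], 40.1% [38.2, 42.1], 45.5% [43.9, 47.1] and 38.7% [37.3, 40.2] in suffixes 1 to 4. Of the cells named Macro_Vegfa or Macro_Maf, Macro_Vegfa formed 54.2%, 52.8%, 54.3% and 50.1%. Macro_Vegfa barcodes of different suffixes shared 0 sequences in every pair of suffixes except 2 and 3, which shared 2.

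Set against all other sorted cells of suffix 1, Macro_Vegfa stood out by macrophage and inflammatory genes. A gene is called higher or lower here when both sides together have 50 or more UMIs and the exact 95% interval of its ratio lies wholly beyond 2-fold. Of 3514 genes with enough UMIs, 101 were called higher, 2.87% of them, and 295 lower, or 8.39%. Called on its own, suffix 2 gave 73 higher, 2.36%, and 289 lower, 9.36%. In suffix 2, 96 of the 101 and 257 of the 295 lay in the same direction with an interval that excluded equality. Leaving S100a8 and S100a9 out of every cell's total moved the median log2 ratio of all genes by -0.34 and gave 34 higher and 428 lower, and counting UMIs per cell moved it by 0.81 and gave 1091 higher and 127 lower. The genes named next kept their direction under both. The highest ratios among genes so repeated were those of Tnfsf15, the TNF family ligand TL1A, at a log2 ratio of 2.51, and Selenbp1, which encodes a selenium-binding protein, at 2.21. Tnfsf15 rested on 24 UMIs in Macro_Vegfa and 34 elsewhere in suffix 1. In suffix 2 it had 6 and 11, under the minimum of 50, with an interval of 0.37 to 3.65. By level of Tnfsf15, Macro_Vegfa ranked 3 among the names with 50 or more cells in suffix 1. Selenbp1 was at 1.48 UMIs per 10000 against 0.319 in suffix 1, and at 2.16 against 0.376 in suffix 2. Tnfrsf9 at 2.20 and Fcrlb, an Fc receptor-like gene, at 2.15 were next. Log2 ratios of Il1a were 2.11 and 2.05 in suffixes 1 and 2, and those of Il6 were 2.08 and 2.16. The 6 lowest were the matrix genes Col6a3, Col5a2, Postn and Col3a1, the complement inhibitor gene Serping1 and Fhl2, which encodes a LIM-domain protein. Col3a1 was at 0.150 against 10.9 UMIs per 10000.

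Against the other 4 macrophage names pooled, Macro_Vegfa had higher levels of the 4 markers given for the name and lower levels of cell cycle genes. Of 2896 genes with enough UMIs in suffix 1, 17 were called higher, 0.587%, and 101 lower, 3.49%. Suffix 2 on its own gave 18, 0.756%, and 71, 2.98%. In suffix 2, 14 of the 17 and 93 of the 101 lay in the same direction with an interval that excluded equality. The median log2 ratio of all 2896 genes was -0.12, and in UMIs per cell it moved by a further -0.19. The 4 markers were all among the 17, at log2 ratios of 1.92 [1.82, 2.02] for Tnfrsf9, 1.33 [1.15, 1.52] for Il6, 1.32 [1.28, 1.37] for Ptgs2 and 1.28 [1.22, 1.33] for Il1a. In suffix 2 they were 1.42 for Tnfrsf9, 2.75 for Il6, 1.25 for Ptgs2 and 1.26 for Il1a. Suffix 2 had the larger ratio for Il6, whose pooled level in the other macrophages was 0.755 in suffix 1 and 0.317 in suffix 2.

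In the interleukin-1 family, calls against the pool went in both directions. Of 17 listed members 11 were measured and 9 had enough UMIs, with 3 called higher and 2 lower and a median log2 ratio of 0.69. Besides Il1a, the members called higher were Il1rn, the interleukin-1 receptor antagonist, and Il1f9, the ligand interleukin-36 gamma. Il1rn was at 13.6 UMIs per 10000 in Macro_Vegfa against 6.20 in the other macrophages in suffix 1, a log2 ratio of 1.13. In suffix 2 it was at 20.3 against 9.82 and was not called. Il1f9 was at 1.60 against 0.653 in suffix 1 and at 1.02 against 0.245 in suffix 2. Il1f9 is also on the list of neutrophil markers, and 418 of its 523 UMIs in Macro_Vegfa of suffix 1 lay in the 304 cells with over 5% of UMIs from S100a8 and S100a9; their part in this ratio was not tested. The ligand gene Il1b did not pass 2-fold, at 180.4 against 112 in suffix 1 and 182 against 95.2 in suffix 2. The decoy receptor gene Il1r2 did not pass in suffix 1, at 1.03 [0.96, 1.10], and was called higher in suffix 2, at 1.16 [1.01, 1.31]. The receptor genes Il18r1 and Il1rl1, which bind interleukin-18 and interleukin-33, were called lower at -1.87 and -1.76. They rested on 28 and 17 UMIs in Macro_Vegfa. Against Macro_Maf alone, 7 members had enough UMIs in suffix 1, with 3 called higher and 0 lower. In suffix 2, 4 were called higher and 0 lower.

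Among 27 listed inflammatory mediators 7 were measured and 6 had enough UMIs, of which Il1a, Il6 and Ptgs2 were called higher and 0 lower. These genes are all markers given for the name, so the list added no call beyond the markers. The summed level of this list was 235 in Macro_Vegfa against 135 in the other macrophages in suffix 1, and 245 against 122 in suffix 2. Most of the Macro_Vegfa sum in suffix 1 was Il1b, at 180.4, which did not pass 2-fold. Macro_Vegfa had the highest sum of all names with 50 or more cells in suffix 1. In suffix 2 Mono_Ly6c2 had 276. Csf1, the growth factor of macrophages, had a log2 ratio of 0.79, and Il10, an anti-inflammatory cytokine, had 0.06 with an interval of -0.15 to 0.27. Of the prostaglandin genes with enough UMIs, Ptgs2 alone of 5 was called. Ptgs1, the constitutive cyclooxygenase, stood at 3.59 against 6.14 and did not pass 2-fold. The TNF family had 1 of 9 called higher, Tnfrsf9, and 2 called lower, Tnfrsf4 and Tnfrsf18, which encode costimulatory receptors of T cells. Against Macro_Maf alone, 1 of 7 was called higher and 0 lower.

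Genes of coagulation and matrix remodelling included Procr, the endothelial protein C receptor, the only one of 7 with enough UMIs that was called higher in suffix 1. Procr was at 0.964 against 0.300 UMIs per 10000 in suffix 1, a log2 ratio of 1.69 [1.41, 1.97], and at 1.83 against 0.601 in suffix 2, a log2 ratio of 1.61. F3, tissue factor, had log2 ratios of 1.19 in suffix 1 and 1.70 in suffix 2, where it was called. Thbs1, the matrix protein thrombospondin-1, had 1.02 and 1.10. The median of the 7 was 1.02. Other genes named by the same rule were Flrt3, an adhesion protein, at 1.41 in suffix 1 and 1.59 in suffix 2, and Sgms2, a sphingomyelin synthase, at 1.15 and 1.56.

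No listed gene of hypoxia, glycolysis, NF-kB signalling, complement or interferon response with enough UMIs was called against the other macrophages. Many listed genes were not measured. Those measured were 4 of 24 for hypoxia, 4 of 23 for glycolysis, 12 of 40 for NF-kB and Toll-like receptor signalling and 10 of 19 for complement. For interferon-stimulated genes they were 19 of 34. In suffix 1 the summed level was 16.9 against 11.7 for hypoxia and 39.65 against 27.9 for glycolysis. The glucose transporter gene Slc2a1 was at 13.7 against 8.59 UMIs per 10000, a log2 ratio of 0.68, and Eno1, a glycolytic enzyme, at 21.6 against 15.6. The 12 measured NF-kB and Toll-like receptor genes had a median of 0.31, and Traf1 had 0.61. Nfkb1, which encodes the p105 and p50 subunits, had 0.30. The complement genes C1qa, C1qb and C1qc had -0.61, -0.66 and -0.68, with C1qa at 98.9 against 151. The 17 interferon-stimulated genes with enough UMIs had a median of -0.40. Slc7a11, the cystine transporter, had 1.03 in suffix 1 and 1.10 in suffix 2, and its interval reached within 2-fold in both.

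Cell cycle genes stood far below the other macrophages, with 21 of 24 listed genes called lower, 0 higher and a median log2 ratio of -2.34. Nusap1, a spindle protein, was at 0.153 against 1.96 UMIs per 10000, and Ccna2, which encodes cyclin A2, at 0.162 against 1.74. Nuf2, a kinetochore subunit, rested on 8 UMIs in Macro_Vegfa against 237. By name the list summed to 19.3 in Macro_Vegfa, 124 in Macro_Mgl2, 34.5 in Macro_Maf and 25.2 in Macro_Ccl12. Macro_Mgl2 was the highest of these, and Nusap1 was at 5.41 there and at 0.173 in Macro_Maf. The lowest ratio among the named genes, -5.79, was that of Penk, which encodes proenkephalin, with 2 UMIs in Macro_Vegfa and 183 in the pool. Penk was at 0.0576 in Macro_Maf and had 0 UMIs in Macro_Ccl12 and Macro_Mgl2. Of 11 T cell markers 9 were also called lower. They summed to 2.10 UMIs per 10000 in Macro_Vegfa against 6.85 in the pool, while Macro_Maf, Macro_Ccl12 and Macro_Mgl2 had 1.63, 2.51 and 1.84. The part of T cell transcripts in the pooled ratios was not tested.

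**Figure D2:**
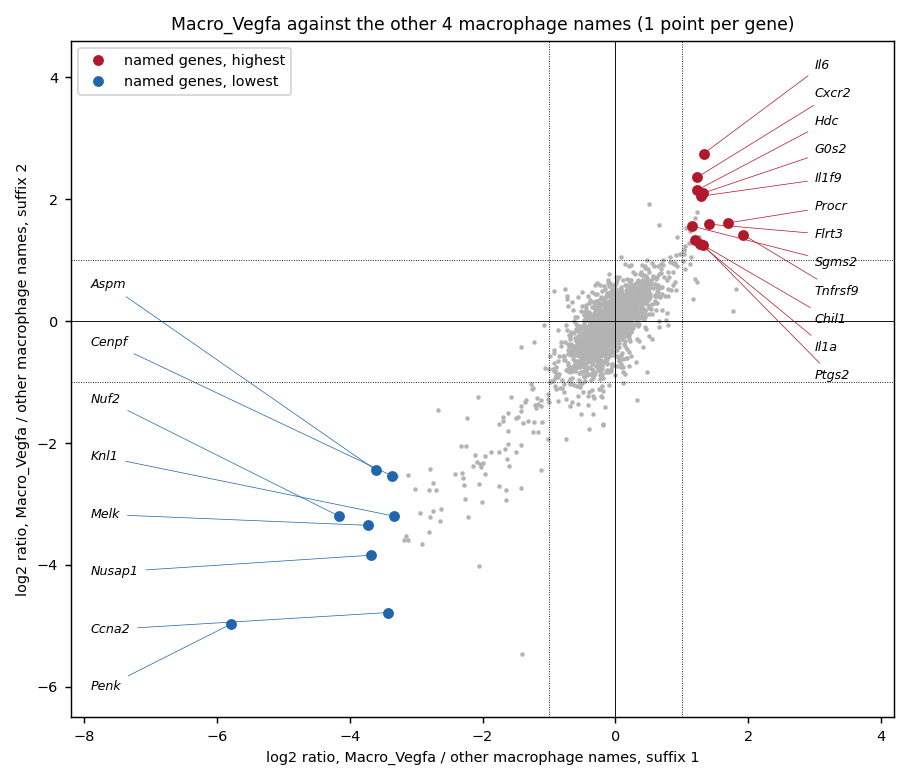
Log2 ratio of levels in Macro_Vegfa to those in the other 4 macrophage names, suffix 1 (horizontal) against suffix 2 (vertical), 1 point per gene with 50 or more UMIs in both suffixes; dotted lines mark 2-fold, and the named genes are in red (higher) and blue (lower). Tnfrsf9 lies at 1.92 and 1.42, Ptgs2 at 1.32 and 1.25, and Nusap1 at -3.68 and -3.84, while Kif14, Nek2, Pdcd1 and Sapcd2 fell under the minimum in suffix 2 and are not drawn.

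Several genes called higher against the other macrophages in suffix 1 are known from neutrophils, among other cells. They were G0s2, an inhibitor of triglyceride lipase, Hdc, the histamine-forming enzyme, and Csf3r, the receptor of granulocyte colony-stimulating factor. Also among them were the chemokine receptor genes Cxcr2 and Cxcr1, and Chil1, a chitinase-like protein. Hdc is also on the list of mast cell and basophil markers. Chil1 was not called in suffix 2, at a log2 ratio of 1.33 [0.86, 1.80]. G0s2 was at 17.6 against 7.05 UMIs per 10000 in suffix 1 and 17.8 against 4.14 in suffix 2. Cxcr2 was at 2.67 against 1.14 and at 1.36 against 0.265. Of 15 neutrophil markers 10 were measured, of which 5 were called higher and 0 lower in suffix 1. In suffix 2, 5 were called higher and 1 lower, Lcn2, at 2.87 against 9.80 UMIs per 10000. Their summed level was 727 in Macro_Vegfa against 556 in the pool in suffix 1, and 351 against 268 in suffix 2. Most of that sum was S100a8 and S100a9, the calprotectin genes, with 282 against 213 and 388 against 304 in suffix 1. Neutrophils summed to 6166, and Macro_Mgl2 to 1288. The part of neutrophil transcripts in these ratios was not tested, and values by cell follow.

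Against Macro_Maf alone, the largest other macrophage name, Macro_Vegfa was higher in the 4 markers, in monocyte genes and in neutrophil genes, and lower in some cell cycle genes. Of 2721 genes with enough UMIs, 30 were called higher, 1.1%, and 23 lower, 0.845%. In UMIs per cell the numbers were 28 and 35. Suffix 2 on its own gave 25 higher, 1.17%, and 13 lower, 0.608%. In suffix 2, 27 of the 30 and 18 of the 23 lay in the same direction with an interval that excluded equality. Tnfrsf9 had the largest ratio among the named genes, 2.31 [2.17, 2.46] in suffix 1 and 1.55 in suffix 2. Il6 had 1.61 and 4.87, with 0.0727 UMIs per 10000 in Macro_Maf of suffix 2. Il1a had 1.23 and 1.27, and Ptgs2 had 1.30 and 1.55. Il1r2 was called in both suffixes, at 11.6 against 5.10 and 9.02 against 2.88.

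The monocyte genes called higher against Macro_Maf in suffix 1 were 3 of 5, among them Thbs1 and Chil3. Thbs1 was at 6.74 against 2.43 UMIs per 10000 in suffix 1 and 5.86 against 1.61 in suffix 2. Chil3, a chitinase-like protein of monocytes and neutrophils, had 3.83 against 1.31 in suffix 1 but 0.329 against 0.739 in suffix 2. Hsd11b1, which regenerates active glucocorticoid, was at 0.734 against 0.203 in suffix 1 and 0.555 against 0.0121 in suffix 2, where Macro_Maf had 1 UMI. Echdc3 had a log2 ratio of 1.96 and rested on 82 and 19 UMIs.

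The neutrophil markers differed most, with 8 of 10 called higher against Macro_Maf and a median log2 ratio of 1.62. Their sum was 727 in Macro_Vegfa against 202 in Macro_Maf in suffix 1, and 351 against 25.8 in suffix 2. S100a8 was at 282 against 73.2, S100a9 at 388 against 108 and G0s2 at 17.6 against 5.16. When only cells in which S100a8 and S100a9 were 5% or less of UMIs were kept on both sides, the log2 ratio of S100a8 was 0.38 in place of 1.95 and that of S100a9 was 0.58 in place of 1.85. G0s2 then had 1.50 and Hsd11b1 1.37.

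The complement genes C1qa, C1qb and C1qc had log2 ratios of -0.91, -0.97 and -0.98 against Macro_Maf in suffix 1, just within 2-fold, and -1.17, -1.18 and -1.11 in suffix 2, where all 3 were called lower. C1qa was at 98.9 against 186 UMIs per 10000 in suffix 1. Mrc1, the mannose receptor, had -0.87 in suffix 1 and -0.81 in suffix 2. The immediate early genes Jun and Atf3, which encode AP-1 family factors, were called lower at 25.6 against 55.9 and 29.2 against 61.6. In suffix 2 their log2 ratios were -0.49 and -0.55 and not called. The lowest ratios among the named genes were those of Exo1, an exonuclease of DNA repair, at -2.68, and Mybl2, a transcription factor of cycling cells, at -2.65. They rested on 9 against 52 UMIs for Exo1 and 15 against 85 for Mybl2. Clspn, which encodes the replication checkpoint protein claspin, had -2.34 with 0.132 against 0.668. In suffix 2 Exo1, Mybl2 and Clspn fell under the minimum of 50 UMIs. Mcm6 and Mcm3, subunits of the replicative helicase, had -1.75 and -1.66, and 6 of 22 listed cell cycle genes were called lower.

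Macro_Vegfa and the Mono_Ly6c2 monocytes had most inflammatory genes within 2-fold of each other and differed in complement, coagulation, interferon-stimulated and cell cycle genes. Of 2508 genes with enough UMIs, 47 were called higher, 1.87%, and 37 lower, 1.48%. Suffix 2 on its own gave 26 higher, 1.41%, and 22 lower, 1.19%. In UMIs per cell the numbers were 463 and 8 in suffix 1, the median log2 ratio of all genes moving by 0.85. Of the 6 inflammatory mediators with enough UMIs 0 were called in suffix 1, and their median log2 ratio was 0.02. In suffix 2 Il10 was called lower, at 0.514 against 4.05 UMIs per 10000. Il1a had 0.07 in suffix 1 and -0.14 in suffix 2. Il6 had -0.56 and -0.69, and Ptgs2 -0.37 and -0.56, although in UMIs per cell they were positive at 0.30 and 0.48 in suffix 1. A Mono_Ly6c2 cell had a median of 1808 UMIs in suffix 1, against 3457 in Macro_Vegfa. Tnfrsf9 alone of the markers was called, at 3.08 [2.74, 3.44] in suffix 1 and 2.05 in suffix 2.

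The C1q genes were among the highest ratios of Macro_Vegfa to Mono_Ly6c2. C1qa was at 98.9 against 7.85 UMIs per 10000, and its log2 ratios were 3.65 and 3.54 in suffixes 1 and 2. C1qc had 3.53 and 3.57, and C1qb had 3.49 and 3.29. Slamf9, a receptor of the SLAM family, was at 3.47 against 0.301. Cep152 and Atp9a had ratios as large, 4.35 and 3.53, but rested on 1 and 2 UMIs in Mono_Ly6c2. Ptgs1 was called higher at 3.59 against 1.02, and Il1r2 at 11.6 against 4.91. Of 22 cell cycle genes with enough UMIs 6 were called higher and 0 lower in suffix 1, with a median log2 ratio of 1.60, and 1 was called higher in suffix 2. That one was Stmn1, a microtubule regulator, at 2.63 in suffix 1 and 2.03 in suffix 2. Mrc1 was at 6.37 against 2.33 in suffix 1, and in suffix 2 its log2 ratio of 0.43 was not called.

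Lower in Macro_Vegfa than in Mono_Ly6c2 were Thbs1, Chil3, Thbd and Slpi. Thbs1 was at 6.74 against 57.2 UMIs per 10000 in suffix 1 and 5.86 against 32.6 in suffix 2. Chil3 was at 3.83 against 23.8 and at 0.329 against 3.28. Thbd, which encodes thrombomodulin, was at 0.615 against 3.66, and Slpi, a secreted protease inhibitor, at 10.1 against 49.9. Of 8 coagulation and matrix genes with enough UMIs 4 were called lower and 1 higher. Of 16 interferon-stimulated genes 6 were called lower and 0 higher, all 6 of the Ifi200 family of DNA sensors. Ifi204 was at 2.92 against 7.25 in suffix 1 and 2.96 against 7.29 in suffix 2. Ifi209 had log2 ratios of -1.82 and -1.28 in suffixes 1 and 2, and Ifi211 had -1.38 and -1.60. Id1 and Id3, inhibitors of helix-loop-helix factors, had -1.31 and -1.37.

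Macro_Vegfa cells differed widely among themselves in S100a8 and S100a9. In suffix 1 the median cell had 0.728% of its UMIs from these genes, and the 90th percentile was 18.3%. Cells at 1% or less numbered 451, cells above 1% and up to 5% numbered 116, and cells over 5% numbered 304. These 304 cells were 34.9% [31.7, 38.2] of the name and held 92.4% of its S100a8 and S100a9 UMIs. In suffix 2 the cells over 5% were 34 of 253, or 13.4% [9.49, 18.3]. The median totals of the 3 bins were 3282, 3224 and 3933 UMIs in suffix 1. Over 5% were also 57 of 737 Macro_Maf cells in suffix 1, 7.73%, and 0 of 229 in suffix 2, which by a floor of 3 counts allows up to 1.31%. Of B cells, which are not known to express these genes, 5.66% in suffix 1 and 8.57% in suffix 2 were over 5%, with median totals of 558 and 1352 UMIs. Neutrophils were over 5% in 97.3% and 94.7%.

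Other neutrophil genes followed the S100 bins while the macrophage and inflammatory genes did so less or in the other direction. Levels here are per 10000 UMIs other than S100a8 and S100a9. Csf3r was at 1.30 in cells at 1% or less, 9.91 in the middle bin and 16.3 in cells over 5% in suffix 1, and at 0.973, 6.44 and 14.1 in suffix 2. G0s2 was at 2.33, 32.3 and 38.0, and Hdc at 0.324, 6.44 and 9.48. Neutrophils of suffix 1 had 55.4, 213 and 37.5 for these genes, above every bin. C1qa was at 99.7, 114 and 112 across the bins in suffix 1, and Mrc1 at 6.4, 7.9 and 7.0. In suffix 2 C1qa was at 75.6, 147 and 90.9. C1qb and C1qc were also higher in the upper bins than in the lowest in both suffixes, C1qb at 65.2, 79.3 and 77.1 in suffix 1. Some other genes of macrophages fell across the bins in suffix 1. Ctss, the lysosomal protease cathepsin S, was at 89.4, 85.3 and 78.0, and the Fc receptor gene Fcgr2b at 28.0, 23.7 and 20.8. In suffix 2 Ctss was at 92.1, 103.8 and 78.5, and Fcgr2b at 36.6, 33.4 and 30.1.

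Ptgs2 and Tnfrsf9 were highest in cells at 1% or less in both suffixes, and Il1a was so in suffix 1. Il1a was at 22.7, 18.7 and 14.6 across the bins of suffix 1. In suffix 2 it was at 21.7 [20.6, 22.9], 15.8 and 20.1 [18.05, 22.3], and the intervals of the lowest and highest bins overlapped. Ptgs2 was at 39.6, 28.3 and 27.7 in suffix 1 and at 43.4, 24.9 and 31.0 in suffix 2. Il6 was at 2.26, 2.47 and 1.55 in suffix 1, and in suffix 2 it was at 2.98 in the lowest bin, had 0 UMIs in the 20 cells of the middle bin and was at 0.621 in cells over 5%. Tnfrsf9 was at 11.2, 5.29 and 5.90 in suffix 1 and at 17.5, 8.58 and 9.93 in suffix 2. With cells over 5% left out on both sides, the log2 ratios to the other macrophages were 1.49 for Il1a, 1.45 for Il6, 1.44 for Ptgs2, 2.19 for Tnfrsf9 and 1.96 for Procr. The same ratios were 1.36 for G0s2, 1.16 for Cxcr2 and Il1f9, 0.92 for Hdc, 0.99 for Sgms2 and 0.97 for Chil1. The markers were thus at least as far from the other macrophages without those cells as with them.

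**Figure D3:**
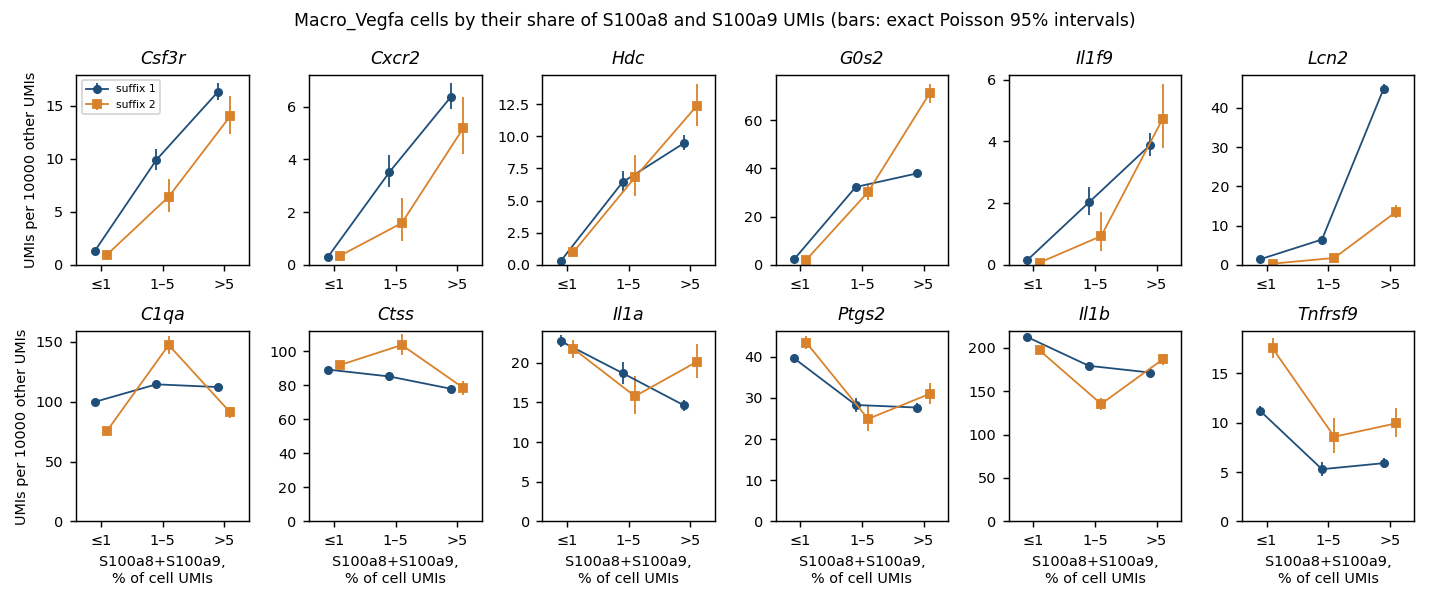
Levels of 12 genes in Macro_Vegfa cells binned by the share of their UMIs from S100a8 and S100a9 (1% or less, over 1% to 5%, over 5%), in UMIs per 10000 other UMIs, with exact 95% Poisson intervals and suffix 1 and 2 apart. Csf3r stands at 1.30, 9.91 and 16.3 across the bins of suffix 1, and C1qa at 99.7, 114 and 112.

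Several neutrophil genes had more UMIs per S100a9 UMI in Macro_Vegfa than in neutrophils. Per 100 UMIs of S100a9, Macro_Vegfa cells over 5% of suffix 1 had 1.51 UMIs of Csf3r, against 0.696 in neutrophils and 1.13 in B cells. G0s2 had 3.50 in these Macro_Vegfa cells, against 2.67 in neutrophils and 5.21 in B cells. Cells at 5% or less had 5.79 for Csf3r and 16.0 for G0s2. Lcn2, a granule protein gene, was nearer, at 4.14 in cells over 5%, against 4.57 in neutrophils and 3.96 in B cells. In suffix 2 the values in cells over 5% were 1.77 for Csf3r against 0.699 in neutrophils and 8.97 for G0s2 against 4.41. B cells of suffix 2 had 1.56 for Csf3r and 8.16 for G0s2. Lcn2 was below neutrophils there, at 1.70 [1.49, 1.93] in cells over 5%, against 2.93 in neutrophils and 1.58 in B cells. No doublet caller was run, and the parts of free RNA, of droplets with more than 1 cell and of transcripts made by the cells themselves were not tested.

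The markers were detected in part of the cells at a fixed depth. As counted, 60.3% of Macro_Vegfa cells of suffix 1 had a UMI of Il1a, 12.6% of Il6, 72.9% of Ptgs2 and 36.9% of Tnfrsf9. Thinned to 500 UMIs per cell, which left out 25 shallower cells and kept 846, the shares were 31.0%, 5.08%, 49.3% and 18.2%. In B cells thinned the same way, with 673 left out and 1112 kept, they were 2.07%, 0.180%, 2.43% and 0.719%. The markers were thus well above the share that B cells had. The S100a9 share after thinning was 75.7% in Macro_Vegfa and 79.1% in B cells, so it did not set the names apart, whereas the level of S100a9 was 388 UMIs per 10000 in Macro_Vegfa against 112 in B cells. Thinned Macro_Maf cells had 19.6% for Il1a, 1.52% for Il6, 31.4% for Ptgs2 and 6.35% for Tnfrsf9. Thinned Mono_Ly6c2 cells had 23.5%, 4.59%, 52.0% and 4.28%. In suffix 2 the B cell shares were higher than in suffix 1, at 5.0% for Il1a, 0.556% for Il6, 6.11% for Ptgs2 and 4.44% for Tnfrsf9. Thinned Macro_Vegfa cells of suffix 2 had 37.15%, 5.53%, 46.25% and 30.0%.

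At that depth most cells held a UMI of 0 or 1 of the markers, and the fewest held all 4. Of the 846 thinned cells of suffix 1, 280 had a UMI of 0 markers, 329 of 1, 169 of 2, 63 of 3 and 5 of all 4. In suffix 2 the numbers were 71, 99, 50, 30 and 3 of 253. Il1a was found more often in cells with Ptgs2, since 39.3% of cells with a Ptgs2 UMI had Il1a, against 22.8% of cells without one. Across the thinned cells, which share library and depth, Il1a and Ptgs2 had a Pearson r of 0.40 and a Spearman rho of 0.27, and Il1a and Il1b had 0.51 and 0.41. Il1a and Tnfrsf9 had 0.13 and 0.11, a weak relation. These are descriptions over cells.

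UMIs of Il6 were concentrated in few cells, and the cells that held one had more Il1a, Il1b and Ptgs2. The 10% of cells with most UMIs of a gene held 96.3% of Il6 UMIs in suffix 1, against 51.8% for Ptgs2 and 68.5% for Tnfrsf9. In suffix 1, 110 cells had a UMI of Il6 and 761 had none, with median totals of 4040 and 3359 UMIs. Il1a was at 55.8 [53.8, 57.9] UMIs per 10000 in cells with Il6 and 11.2 [10.8, 11.6] in those without. Ptgs2 was at 74.3 with and 23.9 without, and Il1b at 303 and 158. Il1rn was at 14.7 and 13.4 and Csf1 at 2.39 and 2.35, with overlapping intervals. In suffix 2, with 35 and 218 cells, Il1a was at 45.7 and 14.8 and Ptgs2 at 76.6 and 29.7. The cells with Il6 had the higher median total in both suffixes, 3902 against 3050 in suffix 2, and the part of depth in the split was not tested.

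Coagulation genes were also higher in cells with Il6 in suffix 1, and C1qa was lower in both suffixes. Thbs1 was at 14.0 UMIs per 10000 in cells with Il6 and 5.43 in cells without, F3 at 1.66 and 0.575, and Procr at 1.93 and 0.788. In suffix 2 Thbs1 was at 10.5 and 4.90, F3 at 1.74 and 1.08 and Procr at 2.34 and 1.72, and the intervals of F3 and Procr overlapped. Fn1, the matrix protein fibronectin, was at 101.5 and 65.9. Tnfrsf9 was at 9.27 and 7.74 in suffix 1 and at 21.1 and 13.2 in suffix 2. C1qa was at 79.9 and 102.3 in suffix 1 and at 69.5 and 86.9 in suffix 2. S100a9 was lower with Il6 in suffix 1, at 235 and 416, and higher with it in suffix 2, at 200.2 and 163. Mrc1 was at 5.72 and 6.49 in suffix 1 and at 5.05 and 5.31 in suffix 2, with overlapping intervals in both.

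**Figure D4:**
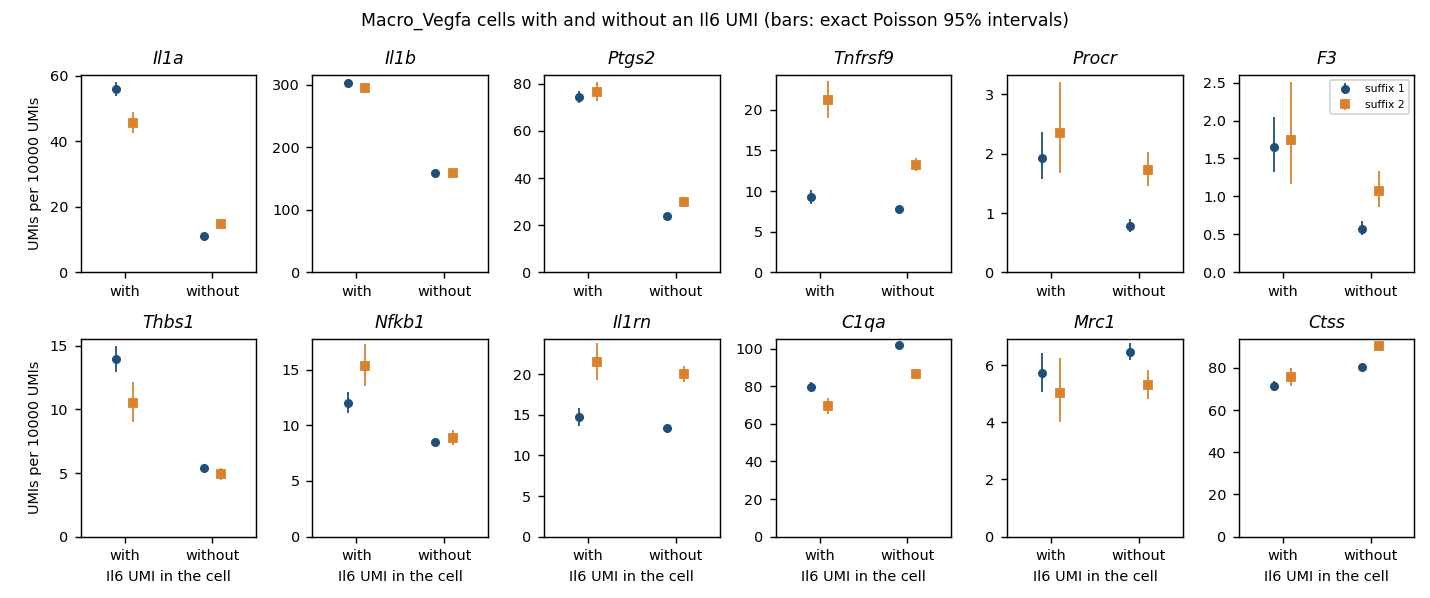
Levels of 12 genes (UMIs per 10000 counted UMIs) in Macro_Vegfa cells with a UMI of Il6 and in those without one, with exact 95% Poisson intervals, suffix 1 and suffix 2 apart. Il1a stands at 55.8 in cells with Il6 and 11.2 in cells without in suffix 1, and C1qa at 79.9 and 102.3.

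Between suffix 1 and suffix 2 the Macro_Vegfa cells differed in few genes. Of 2544 genes with enough UMIs, 6 were called higher in suffix 1, 0.236%, and 5 lower, 0.197%. Among those higher in suffix 1 were Chil3, Lcn2, Cxcr1 and S100a9, genes best known from neutrophils and monocytes, and Cd55, a complement regulator. Chil3 was at 3.83 in suffix 1 and 0.329 in suffix 2, a log2 ratio of 3.54. Lcn2 was at 16.2 and 2.87, and S100a9 at 388 and 170. The share of cells over 5% S100a8 and S100a9 was also higher in suffix 1, at 34.9% against 13.4%, and its part in these ratios was not tested. Those lower in suffix 1 were Tmeff1, Cd36, Cnn3, Gbp5 and Cox4i2. Cd36, a scavenger receptor, was at 0.327 against 0.925, and Gbp5, an interferon-inducible GTPase, at 0.569 against 1.57.

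The inflammatory genes were not called between the suffixes. Il1a had a log2 ratio of -0.16 [-0.23, -0.08], Il6 of -0.16 [-0.39, 0.07] and Ptgs2 of -0.25. Il1b had -0.01, and C1qa had 0.24. Tnfrsf9 was the marker farthest apart, at 7.97 in suffix 1 against 14.6 in suffix 2, a log2 ratio of -0.87. Since the group of either suffix is unknown, these ratios describe how far levels varied between the 2 suffixes and nothing about Mif.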

How the data were processed

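Droplet single-cell RNA of CD45-positive cells from 2 Mif-depleted and 2 wild-type 4T1 tumour libraries was measured, per the labels. The authors deposited raw UMI counts per gene and cell and a cell type name per barcode. The submitters' processing notes list Cell Ranger, Seurat and GRCm38 (mm10) with no role or version. Cell filters, any removal of doublets and the way cells were named are not stated in the labels. The table as analysed held 4099 complete gene rows for 16383 cells, and 1 incomplete row was left out. Every cell column was pooled over samples, and 0 columns belonged to no mapped sample.

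UMIs were summed over the cells of a name within a suffix and set per 10000 counted UMIs, with exact Poisson 95% intervals for levels, exact conditional binomial ones for ratios and Clopper-Pearson ones for shares. The floor for a gene with 0 UMIs was 3 counts. Depth was 3267871 UMIs over Macro_Vegfa cells of suffix 1 and 973212 over those of suffix 2. Thinning drew 500 UMIs per cell without replacement. The ratio procedure was run on simulated Poisson counts with 200 changed genes. Such counts lack the spread between cells seen in these data, so the run cannot show that the intervals hold for them.

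Named genes had 50 or more UMIs over both sides, an interval wholly beyond 2-fold in suffix 1 and one excluding equality in the same direction in suffix 2, and were the 12 highest and 12 lowest log2 ratios against the other macrophage names and the 6 and 6 for other comparisons; the text names part of them, together with measured list members. Cxcr1 and the genes called between suffixes fall outside the rule and were named after their values were seen. The members, lists and rule were chosen with earlier results of these data known. The planned comparison of Mif-depleted with wild-type libraries was not run, since no label ties a suffix to a library. Alternatives tried were the other suffix, totals without S100a8 and S100a9, UMIs per cell, the mean over cells, other minimums and leaving out shallow, deep or S100-rich cells. Values for 1 cell type name and some genes are not reported here. Promoter windows came from RefSeq and gene coordinates from GENCODE M21, which matched 4067 gene rows. The tools were matplotlib 3.10.9, pandas 2.3.3, scipy 1.17.1, numpy 2.4.6 and Python 3.11.15.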

Additional observations from a re-analysis of the deposited data

Results flagged for a closer look

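For a few listed genes, ratios to the other macrophages or Macro_Maf turned direction between the suffixes, each with an interval excluding equality in both. The differences between the suffixes were not tested. Other genes turned as well. Of the 101 genes called lower against the other macrophages in suffix 1, 2 lay in the opposite direction in suffix 2. Against all other cells this held for 1 of the 295 called lower. Those genes are not named here. Chil3 had a log2 ratio of 0.33 [0.22, 0.44] to the other macrophages in suffix 1, at 3.83 against 3.04 UMIs per 10000, and of -1.30 [-1.90, -0.73] in suffix 2, at 0.329 against 0.807. Against Macro_Maf it had 1.54 in suffix 1, at 3.83 against 1.31, and -1.17 in suffix 2, at 0.329 against 0.739. Fcer1g, the common Fc receptor gamma chain, had 0.04 against Macro_Maf in suffix 1 and -0.06 in suffix 2, at 105 against 103 and 117 against 122. Isg15, an interferon-induced ubiquitin-like protein, had -0.14 against Macro_Maf in suffix 1 and 0.28 in suffix 2, at 4.61 against 5.08 and 5.69 against 4.70.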

How the results depend on the processing

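No paired analysis was possible because no label ties the cells to libraries or replicates. Of the values recomputed, 335 kept direction and size, 172 moved and 5 turned direction; the cause was not tested. Turned were, against Mono_Ly6c2, Il1a at -0.14 in suffix 2 and -0.02 without the 5% of cells with most UMIs, and Il6 at 0.30 and Ptgs2 at 0.48 in UMIs per cell. Between suffixes, Il1a turned to 0.06 in cells with 5% or less S100a8 and S100a9.

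Counts that moved by over 1.5 times against all other cells were 34 higher with S100a8 and S100a9 out of the totals and 34 in cells with 5% or less of them, 1091 higher and 127 lower in UMIs per cell, and 378 and 567 as means over cells. Against the other macrophages they were 9 higher in UMIs per cell, 68 higher and 159 lower as means over cells and 46 and 192 with the 4 names weighted equally. Against Macro_Maf they were 13 lower in suffix 2, 35 lower in UMIs per cell, and 106 higher and 74 lower as means over cells. Against Mono_Ly6c2 they were 26 higher and 22 lower in suffix 2, 463 and 8 in UMIs per cell, and 332 and 62 as means over cells. Means over cells and equal weights count folds with no interval. Between suffixes, 3 were lower in cells with 5% or less S100a8 and S100a9. Thinning gave shares of 31.0%, 5.08%, 49.3% and 18.2% for Il1a, Il6, Ptgs2 and Tnfrsf9. Leaving out cells under 500 UMIs and minimums of 20 or 100 UMIs kept every count within 1.5 times.

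Intervals cover counting error only, each suffix is a single set of cells of unknown group, and in suffix 2 sparse genes often fell under 50 UMIs. The genes covered end within chromosome 5, so UMI totals are those of part of each library.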
